A study of Mus musculus with 2 samples.

Results

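A list of 9 genes that make, release or receive hedgehog ligand was drawn up by name, and the Foxf2-FLAG peaks around them were collected in the palatal shelves of mouse embryos. A peak was taken where its centre lay inside the gene or within 100 kb of an annotated transcription start site (TSS) of the gene. Of the 9 listed genes, 8 were found in the GENCODE vM1 annotation of build mm9, namely Shh, Hhat, Ptch1, Hhip, Gas1, Cdon, Boc and Smo, and Disp1 was not analysed here. They are 8 of 22367 protein-coding genes, and their peaks are 22 of the 9165 in the deposited list.

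The ChIP library was an anti-FLAG immunoprecipitate and the input library was its unprecipitated counterpart, with 1 library of each and no replicate. Both came from Foxf2FLAG/FLAG embryos at E13.5, homozygous for a 3xFLAG tag that CRISPR/Cas9 editing had placed on the endogenous protein, of which palatal shelves (50 pairs) were taken. No library from untagged embryos was analysed here, so signal that does not depend on the tag could not be subtracted. A dissected shelf holds mesenchyme, in which Foxf2 is known to act, together with epithelium and vessels, so the cell type of a peak was not measured, and neither was RNA. The libraries held 26849463 tags (aligned reads) for ChIP and about 19240000 for input, the input depth coming from the deposited scaling.

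Hedgehog ligands are secreted proteins that carry lipid. A ligand relieves the block that its receptor Ptch1 places on the membrane protein Smo, and Smo then signals to the Gli transcription factors. In the palate, Shh is made in the oral epithelium and is received by the mesenchyme beneath it. Foxf2 and its relative Foxf1 are mesenchymal forkhead factors, and proteins of the forkhead family bind sequences such as GTAAACA and ATAAACA.

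All 8 genes had at least 1 Foxf2-FLAG peak, and so did 56.2% of all protein-coding genes under the same rule, so that count says little about them. At least 3 peaks were present at 5 of the genes (Hhat, Ptch1, Hhip, Gas1 and Cdon), and at 11.5% of all genes. A peak with no nearer TSS of another protein-coding gene was present at 7 of the 8 genes, Shh being the exception, against 22.0% of all genes. Per Mb of searched sequence, the hedgehog genes had 11.4 peaks over 1.92 Mb, against 4.57 over all genes. The median was 3 peaks per hedgehog gene and 1 per gene overall. These are descriptions of 8 chosen genes, with no test.

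For 6 of the genes, 7 stretches of 200 bases are printed here. They were chosen for holding a forkhead sequence, so its presence in them is no measure of binding. Each is the middle of the highest-scoring peak of a gene where that stretch held a forkhead sequence, and for Ptch1 the next peak by score was added. They were read from the plus strand of mm9, with forkhead sequences in capitals. The letters searched on both strands were GTAAACA, its close variant GTAAATA, the common ATAAACA and also the variant ATAAATA. Here TGTTTAC is the minus-strand form of GTAAACA, while TGTTTAT is that of ATAAACA, and TATTTAT is that of the variant ATAAATA.
Hhat, 18.9 kb upstream, chr1:194616259-194616458: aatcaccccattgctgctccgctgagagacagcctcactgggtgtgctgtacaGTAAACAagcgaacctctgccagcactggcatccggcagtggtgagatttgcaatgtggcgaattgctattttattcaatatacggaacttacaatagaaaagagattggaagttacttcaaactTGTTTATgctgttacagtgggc
Ptch1, 68.8 kb upstream, chr13:63743200-63743399: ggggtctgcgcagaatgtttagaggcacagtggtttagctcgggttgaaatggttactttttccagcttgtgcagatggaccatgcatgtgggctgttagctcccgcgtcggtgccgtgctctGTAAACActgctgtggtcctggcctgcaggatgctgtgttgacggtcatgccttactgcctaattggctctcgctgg
Ptch1, intron 18, chr13:63624083-63624282: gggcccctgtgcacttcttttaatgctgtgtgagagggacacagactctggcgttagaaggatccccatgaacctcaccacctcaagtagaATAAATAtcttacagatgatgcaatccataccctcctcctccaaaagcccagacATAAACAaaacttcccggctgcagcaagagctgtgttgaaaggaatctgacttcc
Hhip, intron 1, chr8:82578935-82579134: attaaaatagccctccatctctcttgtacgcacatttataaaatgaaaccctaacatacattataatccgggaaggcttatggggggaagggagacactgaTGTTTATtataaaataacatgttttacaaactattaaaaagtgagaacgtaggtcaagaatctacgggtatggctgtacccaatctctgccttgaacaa
Gas1, 90.1 kb upstream, chr13:60368735-60368934: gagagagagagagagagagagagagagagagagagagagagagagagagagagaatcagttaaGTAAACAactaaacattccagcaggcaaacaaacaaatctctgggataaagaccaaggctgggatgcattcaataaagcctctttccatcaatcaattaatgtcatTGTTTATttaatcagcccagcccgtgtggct
Cdon, 61.2 kb upstream, chr9:35167371-35167570: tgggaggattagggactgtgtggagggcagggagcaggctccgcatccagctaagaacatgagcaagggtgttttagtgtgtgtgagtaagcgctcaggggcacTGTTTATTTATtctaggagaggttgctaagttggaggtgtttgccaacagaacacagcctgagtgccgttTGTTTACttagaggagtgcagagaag
Boc, 73.7 kb upstream, chr16:44632648-44632847: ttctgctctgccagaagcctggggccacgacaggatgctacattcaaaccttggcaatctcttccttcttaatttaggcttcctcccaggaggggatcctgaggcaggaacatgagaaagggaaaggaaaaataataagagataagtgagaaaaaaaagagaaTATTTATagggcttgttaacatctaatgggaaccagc

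**Figure D1:**
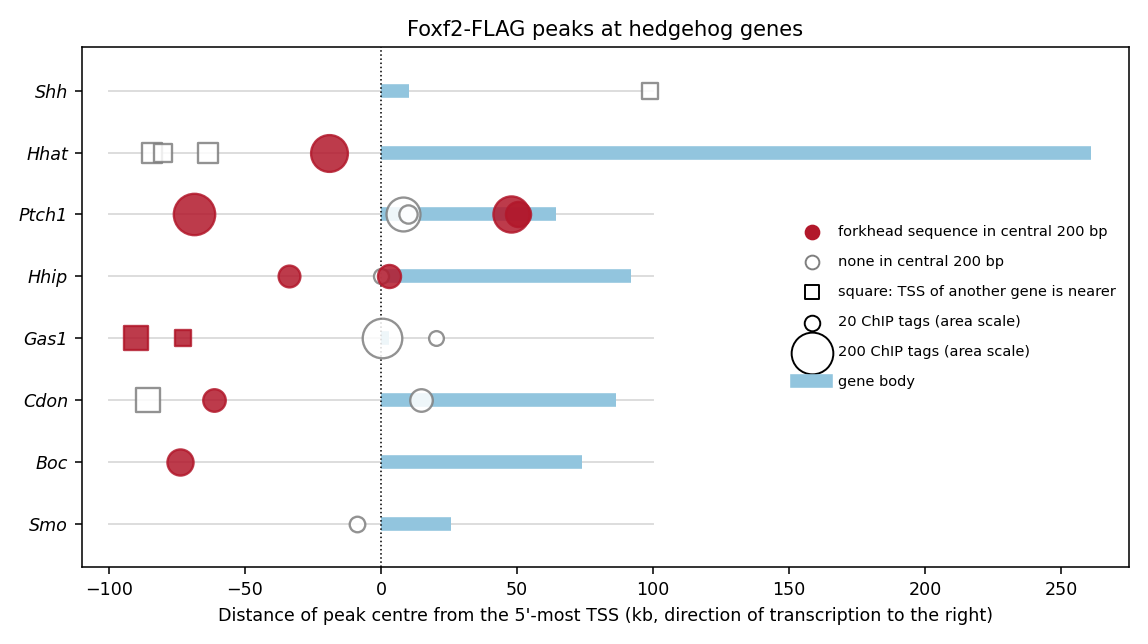
Peaks at the 8 genes by distance of the peak centre from the 5′-most TSS (kb), 1 row per gene, with marker area growing with ChIP tags, filled markers for a forkhead sequence in the central 200 bp and squares for peaks nearer to the TSS of another gene. Ptch1 carries 5 peaks on both sides of its start, and the Hhat gene body carries none.

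Shh, the ligand of the oral epithelium, had no peak of its own. Its gene lies at chr5:28783355-28793641 on the minus strand. The 1 peak in reach, at chr5:28694543-28695043, was 98.8 kb downstream of the TSS in an intron of Rbm33, whose TSS was nearer (26.4 kb). It held 19 tags in ChIP against 1 in input, a 13.61-fold excess with an exact 95% interval of 2.16 to 566, and its score of 19 was near the lowest in the list (17). The score is the peak caller's own measure of strength, and the fold is the authors' ratio of depth-scaled ChIP tags to input tags. A pair of ATAAACA sequences lay in this peak, at -129 and 176 bp from the centre, and none in the central 200 bp. The peak sat just inside the distance limit, and the next nearest was 395 kb from the Shh TSS.

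Hhat, the acyltransferase that attaches palmitate to hedgehog ligands, had the highest-scoring peak of the set. The gene spans 261 kb at chr1:194336710-194597413 on the minus strand and has 7 annotated starts, and no peak lay within it. At chr1:194616047-194616672, 18.9 kb upstream in intergenic sequence, 154 tags in ChIP stood against 8 in input (13.79-fold, 6.83 to 32.5). The score of 156 exceeded that of 99.8% of all peaks. In the sequence printed for Hhat, GTAAACA lies at positions 54 to 60 on the plus strand and ATAAACA at 179 to 185 on the minus strand, 125 bp apart from start to start.

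The other 3 peaks near Hhat lay at the starts of its neighbours. They lay 47 and 304 bp from the nearest TSS of Sertad4 and 96 bp from that of A730013G03Rik, which placed them 84.2, 80.2 and 63.4 kb upstream of Hhat. Their ChIP tags numbered 40, 33 and 35, against 2, 2 and 0 input tags, and their scores were 29, 17 and 18. With no input tag at the A730013G03Rik start, the excess was at least 8.36-fold if the input is set to a floor of 3 tags, and the exact interval, which also covers the counting error of the ChIP tags, began at 6.45. None of the 3 held a forkhead sequence over its whole width, and the central 200 bp of the first had a GC content of 84.5%.

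Ptch1, the hedgehog receptor and itself a transcriptional target of the pathway, had the most peaks and the most tags of the 8 genes. It lies at chr13:63610261-63674474 on the minus strand, and the nearest other TSS to each of its 5 peaks was that of Fancc, 25.6 to 145 kb away. Together the peaks held 572 tags in ChIP against 35 in input. Only 14 of 22367 protein-coding genes (0.0626%), Ptch1 included, had as many ChIP tags in peaks, and 1.70% of genes had as many peaks. The strongest of them lay outside the gene, 68.8 kb upstream at chr13:63742860-63743741, with 197 tags in ChIP against 11 in input (12.83-fold, 7.02 to 26.1) and a score of 107. Its GTAAACA was 26 bp from the centre, and ATAAACA stood at -141 and -302 bp.

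A pair of Ptch1 peaks lay deep in the gene, 1.61 kb apart, in introns 16 and 18 of the 22 introns of transcript ENSMUST00000021921. The peak in intron 16 (chr13:63626111-63627066) held 148 tags in ChIP against 9 in input (11.78-fold, 6.04 to 26.3) and scored 46. The peak in intron 18 (chr13:63623866-63624500) held 67 tags in ChIP against 4 in input (12-fold, 4.47 to 45.3) and scored 59. Each had 4 forkhead sequences over its width. The intron 18 peak was the denser in such sequences, with 6.30 per kb against 4.18 per kb in intron 16.

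The remaining 2 Ptch1 peaks lay around its internal starts, 991 bp apart, and had no forkhead sequence at their centres. The wider one (chr13:63665675-63667371, 1696 bp) covered an internal annotated TSS, and its centre was 305 bp downstream of that start in intron 1. It had 129 tags in ChIP against 9 in input (10.27-fold, 5.24 to 23.0), the lowest fold of the 22 peaks, and a score of 47. The other, in intron 2 (chr13:63664184-63664684), had 31 tags against 2 (11.1-fold, 2.83 to 95.8). Away from its centre, the wider peak held a pair of GTAAACA sequences on opposite strands, 59 bp from start to start and in no annotated exon of the gene, which are shown in capitals because they are its 2 forkhead matches.
Ptch1, start region, chr13:63665994-63666083: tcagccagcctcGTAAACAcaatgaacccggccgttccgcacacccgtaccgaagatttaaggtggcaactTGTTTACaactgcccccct

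**Figure D2:**
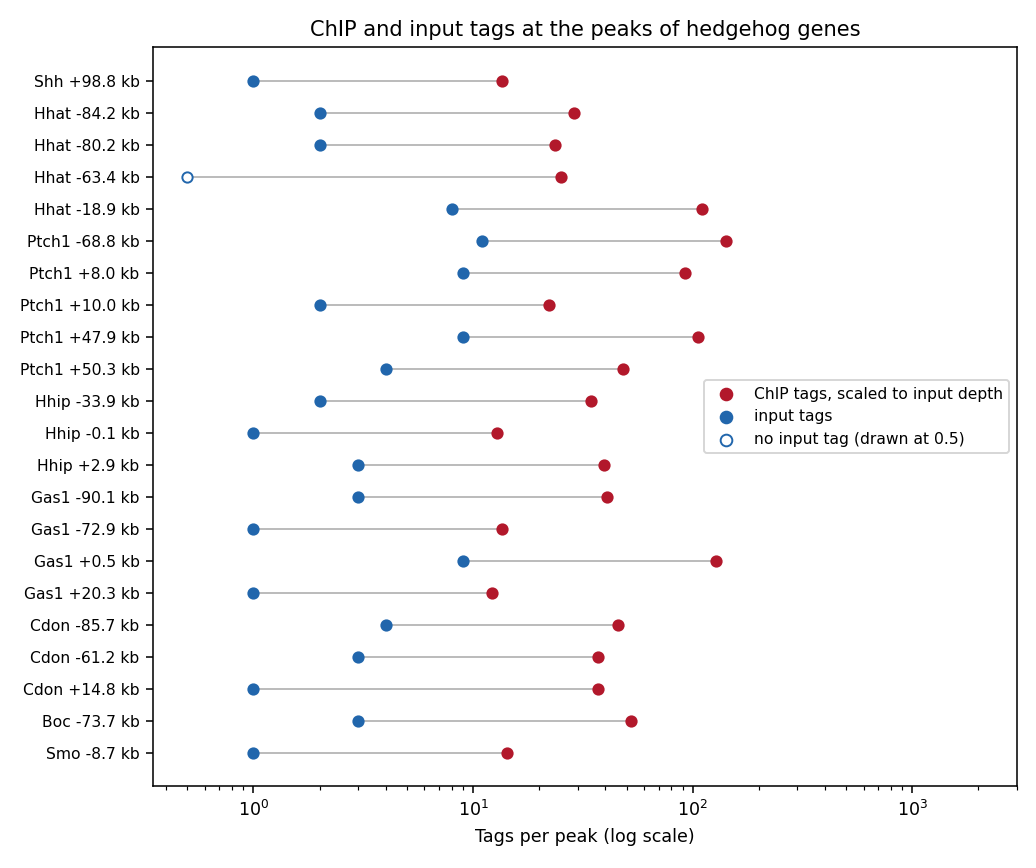
ChIP tags scaled to the input depth (red) and input tags (blue) at each of the 22 peaks on a log axis, with peaks labelled by gene and distance from the 5′-most TSS. ChIP exceeded input at every peak, which the calling threshold required, and the 5 Ptch1 peaks ran from 31 to 197 unscaled ChIP tags.

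Hhip encodes a membrane protein that captures hedgehog ligand and is, like Ptch1, a target gene that limits signalling. It lies at chr8:82490014-82581905 on the minus strand, with no TSS of another protein-coding gene within 343 kb of its peaks. In intron 1, 2.87 kb past the TSS (chr8:82578785-82579285), 55 tags in ChIP stood against 3 in input (13.13-fold, 4.27 to 65.6), with a score of 58 and ATAAACA 4 bp from the centre and again farther out. The upstream peak (chr8:82615425-82616178), 33.9 kb away, held 48 tags in ChIP against 2 in input (17.19-fold, 4.51 to 146) and scored 25, with 3 forkhead sequences. The third peak covered the TSS itself (chr8:82581725-82582225) and was weak, with 18 tags in ChIP against 1 in input (12.89-fold, 2.04 to 537), a score of 17, a GC content of 70.0% and no forkhead sequence.

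Gas1, Cdon and Boc encode the coreceptors that help Ptch1 to bind ligand, and they differed in how their peaks were placed. Gas1, a gene of a single exon at chr13:60275766-60278726, was covered over its 5′ portion by the widest peak of the set (chr13:60277195-60279314, 2119 bp). That peak had 179 tags in ChIP against 9 in input (14.25-fold, 7.34 to 31.7) and a score of 34. Its centre had a GC content of 74.0% with 31 CpG dinucleotides in 200 bp, and no forkhead sequence was found over its whole width. A weak peak (17 tags against 1, score 18) lay 20.2 kb downstream of the Gas1 TSS, 18.5 kb from the wide peak.

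Upstream of Gas1, 2 peaks lay 90.1 and 72.9 kb from its TSS, and both were nearer to the TSS of Gm5084. The farther one (chr13:60368585-60369085) held 57 tags in ChIP against 3 in input (13.61-fold, 4.43 to 68.0) and had the highest score at the gene, 60. Its printed centre opens with a GA repeat and holds GTAAACA and ATAAACA 106 bp apart. The nearer one (chr13:60351354-60351854) had 19 tags against 1 and a score of 19. It had the most forkhead sequences of any of the 22 peaks, 5, of which 4 were ATAAATA in overlapping or closely spaced copies.

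Cdon (chr9:35228713-35315236, plus strand) had 3 peaks of 500 bp. The best scored 54 and lay 61.2 kb upstream at chr9:35167221-35167721, with 52 tags in ChIP against 3 in input (12.42-fold, 4.02 to 62.2). It had 3 forkhead sequences in its central 200 bp, where ATAAACA and ATAAATA overlap 4 bp apart and GTAAACA follows. A peak in intron 1 (chr9:35243245-35243745) had as many ChIP tags, 52, but a single input tag (37.25-fold, 6.40 to 1499), and scored 30. The third, 85.7 kb upstream (64 tags against 4, score 35), was nearer to the TSS of Gm5614.

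Boc had 1 peak, 73.7 kb upstream in intergenic sequence at chr16:44632498-44632998, and none in the gene (chr16:44485158-44559010). It had 73 tags in ChIP against 3 in input (17.43-fold, 5.73 to 86.5) and scored 53, above 87.8% of all peaks. Its 1 forkhead sequence was ATAAATA, 66 bp from the centre.

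Smo, the membrane protein that carries the signal into the cell, had the weakest evidence after Shh. Its 1 peak lay 8.65 kb upstream of the gene (chr6:29685694-29711365), at chr6:29676793-29677293, and was nearer to Smo than to Tspan33 (19 kb). It held 20 tags in ChIP against 1 in input (14.33-fold, 2.29 to 594) and scored 21. ATAAACA was found 213 bp from its centre and none in the central 200 bp.

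Counting error left each fold wide. The lower ends of the 22 intervals ran from 1.91 to 7.34, all under the 10-fold excess that the authors required. Over their 16.0 kb, the peaks at the hedgehog genes held 47.0 ChIP tags and 2.49 input tags per 500 bp. That was 7.0 times the genome mean of the ChIP library and 0.519 times that of the input library, against 5.44 and 0.397 times over all peaks. These means, 6.71 and 4.81 tags per 500 bp, rest on the genome size in the peak list's header, and a larger size would raise all 4 ratios. The low input is part of each fold, and its part in the choice of these peaks was not tested.

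Peaks at the hedgehog genes with a forkhead sequence at the centre had the higher median score, a description with no test. Their median score was 56.0 over 10 peaks, against 25.0 over the 12 without, while the medians over all peaks were 30.0 and 23.0. Of the 22 peaks, 5 were among the 920 of the list that scored 58 or more, namely those of Hhat upstream, Ptch1 upstream and in intron 18, Hhip in intron 1 and Gas1 farthest upstream. All 5 held a forkhead sequence at the centre, as did 71.7% of the 920. The folds gave no such order, with medians of 13.4 with the sequence and 13.2 without it.

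**Figure D3:**
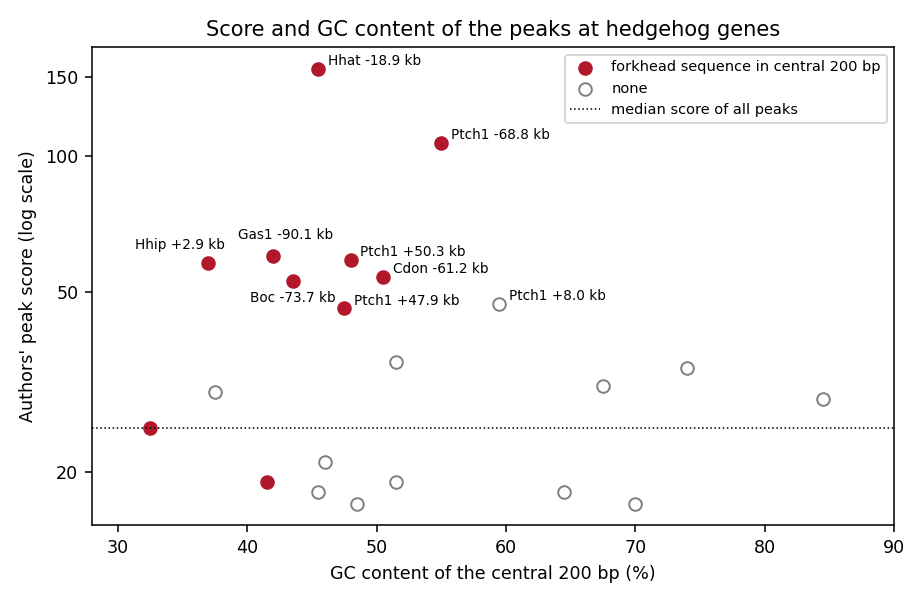
Authors' peak score (log axis) against GC content of the central 200 bp for the 22 peaks, filled where that stretch held a forkhead sequence. Filled points lie at or below a GC content of 55.0%, and 8 of the 10 lie above the median score of all peaks, 25.0, drawn as a dotted line.

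The share of peaks with a forkhead sequence differed from that of all peaks by less than its counting error. Such sequences were present in the central 200 bp of 10 of 22 peaks (45.5%, Clopper-Pearson 95% interval 24.4 to 67.8), against 40.8% of all peaks. Over 1 kb from any protein-coding TSS the share was 10 of 16 (62.5%, 35.4 to 84.8), against 51.7% of such peaks. Within 1 kb of a protein-coding TSS lay 6 of the 22 peaks (27.3%), against 26.7% of all peaks. Among these the share was 0 of 6, which allows a share of up to 50.0% by a limit of 3 counts for a count of 0, against 11.0%. Control stretches were taken 2000 bp from each centre toward lower coordinates, whatever the strand of the gene. They held the sequence at 5 of 22 peaks (22.7%), against 18.2% over all peaks.

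Over their whole width, 16 of the 22 peaks (72.7%) held 37 forkhead sequences, and 64.3% of all peaks held at least 1. They comprised 17 of ATAAACA, 10 of ATAAATA, 9 of GTAAACA and 1 of GTAAATA, with overlapping matches counted apart. GTAAACA was at the centre of 5 of the 22 peaks (22.7%, 7.82 to 45.4), against 15.3% of all peaks. Those 5 were the upstream peaks of Hhat and Ptch1, the farthest peak of Gas1, the best peak of Cdon and the intron 16 peak of Ptch1. ATAAATA reads the same in both directions, so the forkhead sequences read backwards are a control of base composition only without it. Then 9 of 22 centres (40.9%) held a forkhead sequence and 4 (18.2%) a backward one, against 36.3% and 12.1% over all peaks. Both settings were added after seeing the data. In the planned setting, with ATAAATA, 7 of 22 centres (31.8%, 13.9 to 54.9) held a backward sequence, against 18.8% of all peaks. ATAAATA itself was at 5 of 22 centres (22.7%) and in 4 control stretches (18.2%), against 8.51% and 7.63% over all peaks.

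**Figure D4:**
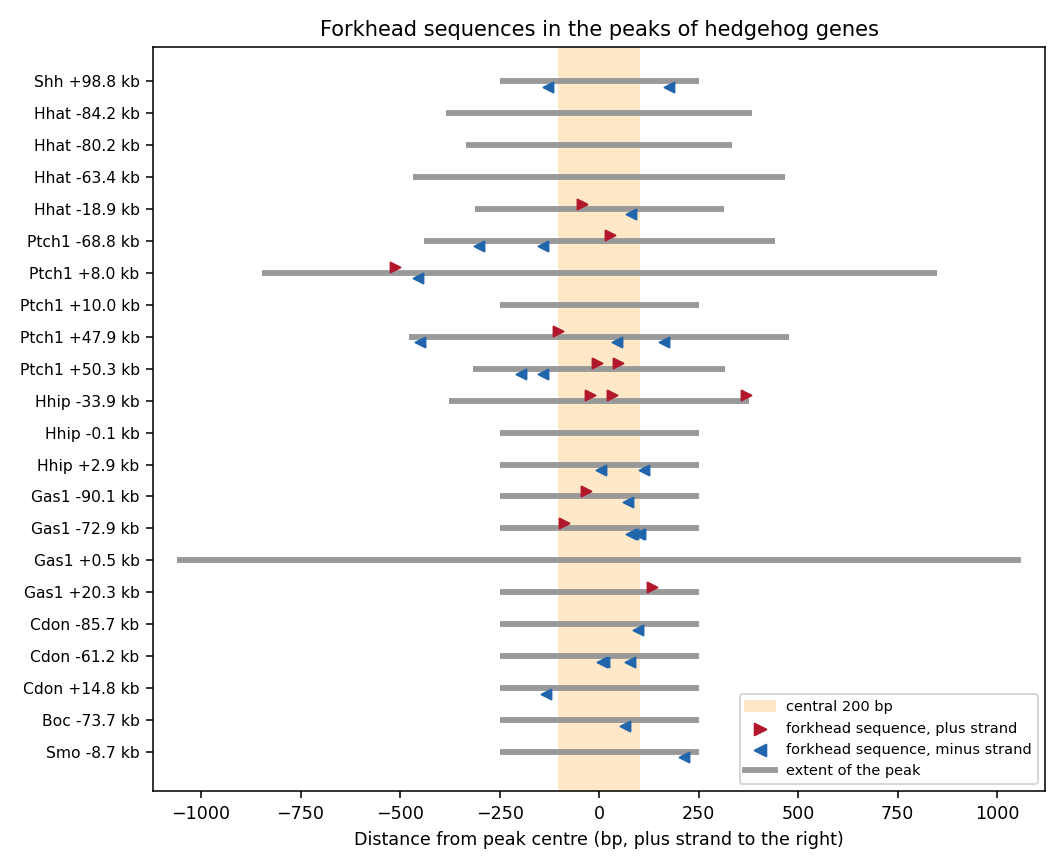
Position of each forkhead sequence (arrowheads by strand) relative to the peak centre in bp for the 22 peaks, with grey bars for the extent of each peak and a band for the central 200 bp. Of 37 sequences, 20 lie within 100 bp of a centre, and 6 of the 22 peaks hold none, among them the 3 at the neighbours of Hhat and the wide peak over Gas1.

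Genes elsewhere in the pathway were near peaks as well. Of 41 other hedgehog genes analysed, 30 (73.2%) had a peak under the same rule, against 56.2% of all genes, and 21 (51.2%) had one within 100 kb with no nearer TSS, against 22.0%. At least 3 peaks were present at 12 of them, against 11.5% of genes. With 3 peaks or more were the ligand gene Ihh and the ligand release gene Disp2, the glypican genes Gpc3 and Gpc6, the gene of the Gli inhibitor Sufu, and Gli2 and Gli3, which encode the pathway's transcription factors. Among genes known to respond to the pathway, Foxf1a (the Foxf1 gene), Foxf2, Foxd1, Mycn and Osr2 did so too. Peaks within 100 kb with no nearer TSS were 1 of 3 at Ihh, 0 of 3 at Disp2, 3 of 4 at Gpc3 and 3 of 6 at Gpc6. They were 2 of 3 at Sufu, 4 of 4 at Gli2 and 3 of 3 at Gli3. At the responsive genes they were 3 of 7 (Foxf1a), 3 of 3 (Foxf2), 5 of 7 (Foxd1), 3 of 4 (Mycn) and 3 of 4 (Osr2).

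For each role, genes with any peak are counted first, and then genes with a peak that has no nearer TSS. Among ligands and release factors, 6 of 7 genes had a peak but only 2 of 7 had one with no nearer TSS, and the best peak of Ihh (62 tags in ChIP against 4 in input, score 62) lay 89.0 kb upstream in an intron of Nhej1. Among receptors and surface modulators it was 4 of 7 and 4 of 7, and the glypican gene Gpc3 had an intergenic peak 13.6 kb upstream (84 against 5, score 66). Among cytoplasmic and ciliary transducers it was 11 of 15 and 7 of 15, led by an intronic Gli2 peak (130 against 8, 11.64-fold, 5.74 to 27.5, score 79). Among responsive genes it was 9 of 12 and 8 of 12, led by Foxd1 (125 against 7, score 74).

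**Figure D5:**
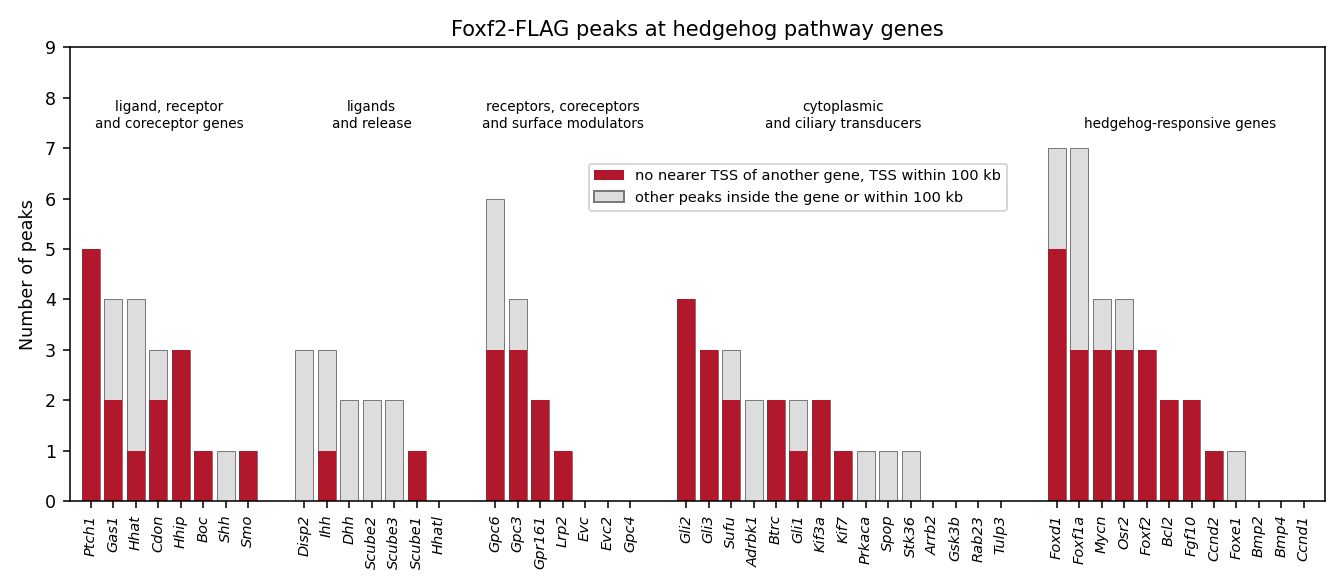
Number of peaks at each of the 8 genes and of the 41 other hedgehog pathway genes, with peaks within 100 kb that have no nearer TSS of another gene in red and other peaks in grey. With every annotated start of a gene counted, all peaks of Ptch1 (5), Gli2 (4), Hhip (3), Gli3 (3) and Foxf2 (3) are red. No peak is present at 11 of the 41 other genes.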

How the data were processed

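The submitters' processing notes list build mm9 with Bowtie 1.0.0, SAMtools 0.1.19 and HOMER, with no version for HOMER. HOMER findPeaks was run in histone style on 1 ChIP and 1 input library, per the file headers, stitching peaks of 500 bp into wider regions, with at most 1 tag per position, 10-fold over input and 10-fold over the surrounding 10000 bp. The deposited signal was ChIP tags per 10000000 and, in other columns, input tags and ChIP tags at the depth of the input, with 0.5 written for none. The deposited fold was the ratio of those last columns, and the score and p-value were the authors' own, used to describe and filter peaks. The clonal fold entered no result. Recovered ChIP tags lay within 0.134 of a whole number and summed to 397999, the header's total in peaks.

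Peak ends fitted the NCBIM37 chromosomes, the assembly of mm9. Coordinates are those of the file, and genes and all annotated TSSs are from GENCODE vM1. Motifs were searched in the 200 bp around each centre. Fold intervals are exact conditional intervals of 2 Poisson counts, and shares carry Clopper-Pearson 95% intervals. Both cover counting error only, since copies made by PCR are not independent molecules. A count of 0 was read as up to 3 counts, both for the input tags behind a fold and for a share, which is a rule apart from those intervals. With 1 library per group no test between libraries was made. Steps were checked on simulated data. The genes, lists and motifs were chosen with earlier results of these data known. Named genes were the 8 members, the nearer gene at each of their peaks, and of the other pathway genes those with the best peak of a role or at least 3 peaks. Of 42 listed pathway genes 41 matched, and 1 more gene of that list is not reported here. Python 3.11.15, SciPy 1.17.1, pandas 2.3.3 and pysam 0.24.0 were used.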

Additional observations from a re-analysis of the deposited data

How the results depend on the processing

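No paired analysis was possible because each group had 1 library, and no replicate could be left out. With a limit of 10 kb, 5 of the 8 genes had 9 peaks, all 9 with no nearer TSS, against 4961 of all genes (22.2%). With 50 kb, 6 genes had 12 peaks, against 9017 genes (40.3%). With only the 5′-most start of each gene, the 8 genes had 22 peaks, 13 of them with no nearer TSS. With all annotated starts, 15 had no nearer TSS. With only scores of 58 or more, 4 genes had 5 peaks, 4 of these with no nearer TSS, against 1478 genes (6.61%), and all 5 (100%) held a forkhead sequence. With a fold of at least 15, 4 genes had 4 peaks, 3 with no nearer TSS, against 6427 genes (28.7%). With the upper part of the list by score (25 or more), 6 of the 8 genes had 15 peaks, against 7983 of all genes (35.7%) with at least 1. The forkhead share was 72.7% over whole peaks, 22.7% for GTAAACA alone and 22.7% in the stretches 2000 bp toward lower coordinates. For backward sequences it was 31.8% with ATAAATA, the planned setting, and 18.2% without it, a setting added after seeing the data. Of the 60 alternatives to these counts and shares, 41 stayed within 1.5 times the count or within the interval of the share. They include the backward sequences, the control stretches and the count of all protein-coding genes with a peak. The interval of the share was wide (24.4 to 67.8) and held the planned backward control too, so this tally is no measure of stability. With 1 added to the input tags, the 22 folds ran from 6.10 to 25.1, each within its interval. Stricter limits leave fewer peaks by construction. The depth limits each peak with 1 input tag, where the upper end of the fold interval exceeds 500, and the absence of replicates leaves the spread between samples unknown.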

Other observations

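Sequences of other factors were also searched at the centres of the 22 peaks. The core of GLI sites (ACCACCC, either strand) was in 0 of them, which allows a share of up to 13.6% by a limit of 3 counts (Clopper-Pearson upper end 15.4), against 2.58% of all peaks. Away from the centre, it occurred 2 times in the intron 2 peak of Ptch1 and 1 time in its intron 16 peak. No other peak of the 22 held it over its whole width, and that share was not counted over all peaks. The RUNX sequence TGTGGT was in 4 peaks (18.2%, 5.19 to 40.3), 3 of them at Ptch1 and 1 at Gas1, against 13% of all peaks. The SOX sequences ACAATG and ACAAAG were in 3 (13.6%, Clopper-Pearson 2.91 to 34.9), against 25.5%, and the E-box CATCTG was in 3 (13.6%), all at Ptch1, against 16.1%.

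The nearest peaks beyond the distance limit lay 103 kb from a Ptch1 TSS (58 ChIP tags against 4 input tags, 1.61 kb from a TSS of Fancc) and 126 kb from that of Smo (16 against 0, 0.306 kb from a TSS of Tnpo3). When genes of every biotype were allowed, the upstream Hhip peak was nearer to the pseudogene Gm5909 (20.2 kb) and the farthest Gas1 peak was nearest to an annotated miRNA gene (26.2 kb).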
